A study of Mus musculus with 12 samples.

Results

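The GIMAP genes encode GTPases of immunity-associated proteins, and the 8 of them listed for the mouse (*Gimap1*, *Gimap3*, *Gimap4*, *Gimap5*, *Gimap6*, *Gimap7*, *Gimap8* and *Gimap9*) are described here in naïve and effector memory CD4+ T cells. Members were taken by gene symbol, matched through RefSeq to the Entrez identifiers of the table. All 8 were found among its 17523 genes, no other gene in the table had a symbol that starts with Gimap, and all 8 passed the filter on low values. GIMAP proteins share a GTP-binding domain that is related in fold to that of the septins. They are made mainly in lymphocytes, and several sit on intracellular membranes. In mice and rats, loss of *Gimap5* leaves few peripheral T cells, and other members have been tied to lymphocyte survival, death and autophagy.

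The RNA came from CD4+ T cells sorted from spleens of *Gr/fr* mice on the C57BL/6 strain, and all groups carry the same alleles. In these mice the *Csf2* gene, which encodes GM-CSF, also drives a Cre recombinase and a blue fluorescent protein. Cre switches on eYFP in the Rosa26 locus for good, so that YFP+ cells make or once made GM-CSF. Naïve cells (CD62L+CD44-) and effector memory cells (TEM, CD62L-CD44hi) were each split into YFP- and YFP+ fractions, with 3 libraries in each of 4 groups. A YFP+ cell need not make GM-CSF when it is sorted. The methods give young adult *Gr/fr* mice for sorted CD4+ T cells, and no treatment is named for these libraries.

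Depth ranged from 40974124 to 57822269 gene-assigned reads. The sort marker *Cd44* had 2831 ± 382 normalized counts (mean ± SD, n = 3) in YFP- naïve and 22014 ± 363 in YFP- TEM cells. The 7 genes of a CD4 T cell list (*Cd3d*, *Cd3e*, *Cd3g*, *Cd4*, *Cd5*, *Cd28*, *Lck*) were expressed in every group. Markers of dendritic cells set the YFP- TEM libraries apart. The summed level of 7 plasmacytoid dendritic cell markers was 8969 to 18294 normalized counts there, 2874 to 5927 in YFP+ TEM and at most 1509 in naïve cells. *Ccr9* alone of this list was higher in the YFP+ than in the YFP- TEM fraction (2442 ± 1201 and 975 ± 414). With *Irf8* (1493 ± 273) it made up most of the YFP+ sum, whereas *Siglech* was at 66.8 ± 46.8 in YFP+ and 2681 ± 1100 in YFP- TEM cells. In these bulk samples, fewer cells of a type and less RNA per cell cannot be told apart.

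The 8 genes form 1 cluster on chromosome 6 (GRCm38.p6, the assembly behind mm10), from 48647186 to 48770851. The order is *Gimap8*, *Gimap9*, *Gimap4*, *Gimap6*, *Gimap7*, *Gimap1*, *Gimap5* and *Gimap3*. *Gimap6* and *Gimap3* lie on the minus strand and the other 6 on the plus strand. *Gimap8* (Entrez 243374) runs from 48647186 to 48660875, *Gimap9* (317758) from 48676121 to 48679116 and *Gimap4* (107526) from 48684578 to 48692062. *Gimap6* (231931) runs from 48701583 to 48708244, *Gimap7* (231932) from 48718621 to 48724636 and *Gimap1* (16205) from 48739047 to 48743795. *Gimap5* (317757) runs from 48746197 to 48754200 and *Gimap3* (83408) from 48764464 to 48770851. In GENCODE M21 the read-through gene *Gm28053* overlaps *Gimap7*, *Gimap1* and *Gimap5*, and the antisense gene *Gimap1os* overlaps *Gimap1*. Neither had a row in the table, and the sources used here do not say whether counting used the strand, so reads of these pairs cannot be told apart.

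Within the family, *Gimap3* and *Gimap5* are the closest relatives. Their coding sequences were 89.8% identical, against 65.1% for the next pair, *Gimap9* and *Gimap7*. Of the 50-base stretches in their transcripts, 7.52% of those of *Gimap3* and 4.53% of those of *Gimap5* occurred in the other gene, whereas the other 6 members shared none. Reads from these stretches could have been split between *Gimap3* and *Gimap5* or dropped.

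The upstream sequences of *Gimap7*, *Gimap9* and *Gimap4* are shown because these 3 genes carry the largest subset difference, the call in the interaction and the largest difference between YFP fractions in TEM cells. They come from RefSeq (GRCm38.p6, chromosome 6, plus strand) and stop before the first start that RefSeq or GENCODE M21 gives for the gene or, for *Gimap7*, for *Gm28053*. Capitals mark AGGAAG, the core that ETS factors bind, and TGTGGT, a RUNX core, on either strand, so ACCACA is TGTGGT read on the other strand. A second AGGAAG match of *Gimap4* runs past the end of the stretch shown.
Gimap7, chr6:48718371-48718606: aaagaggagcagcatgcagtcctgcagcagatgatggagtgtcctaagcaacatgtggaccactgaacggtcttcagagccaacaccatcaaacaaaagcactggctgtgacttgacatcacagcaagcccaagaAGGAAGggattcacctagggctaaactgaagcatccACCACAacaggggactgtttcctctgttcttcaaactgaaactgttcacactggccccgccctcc
Gimap9, chr6:48675885-48676120: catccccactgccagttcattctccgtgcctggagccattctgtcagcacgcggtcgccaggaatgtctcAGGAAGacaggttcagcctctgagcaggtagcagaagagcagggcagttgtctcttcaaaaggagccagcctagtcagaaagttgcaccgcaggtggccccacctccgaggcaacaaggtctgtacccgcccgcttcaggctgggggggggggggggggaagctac
Gimap4, chr6:48684328-48684548: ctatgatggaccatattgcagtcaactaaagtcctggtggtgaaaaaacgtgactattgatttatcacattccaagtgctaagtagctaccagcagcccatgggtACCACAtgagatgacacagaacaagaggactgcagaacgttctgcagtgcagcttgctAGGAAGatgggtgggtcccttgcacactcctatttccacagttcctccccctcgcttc

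Motifs were counted on both strands in the 250 bases before each RefSeq start, 9 windows for the 8 genes, since *Gimap8* has a pair of starts. AGGAAG stood in 7 of the 9 windows, before a start of every member but *Gimap6*, and in 29.5% of all 32851 windows. For *Gimap8* the match lay 48 bases before its later start and inside the gene. No match lay before its earlier start. TGTGGT stood upstream of *Gimap4*, *Gimap7* and *Gimap1*, against 14.0% of all windows. The FOX motif GTAAACA was found upstream of *Gimap3* (3.17% of all windows) and TATAAA upstream of *Gimap6* (12.4%). The longer ETS motif CCGGAAGT, CTTTGA of TCF and LEF factors, AGATAA of GATA factors and GGGTGTGG of KLF factors occurred in 0 of the 9. A match is a run of letters and not evidence of binding. The windows of neighbouring genes in a cluster of relatives may share descent. AGGAAG and CCGGAAGT overlap in the letters GGAAG, and a window can hold both.

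Levels differed widely between the 8 genes. Compared per kilobase of exon, *Gimap3* had 15628 ± 803 normalized counts per kb in YFP- naïve cells, the highest level, and *Gimap5* had 780 ± 37.5, the lowest. In both naïve groups the order was *Gimap3*, *Gimap4*, *Gimap6*, then *Gimap8*, *Gimap1* and *Gimap9*, then *Gimap7* and *Gimap5*. Neighbours in this order whose libraries overlapped were *Gimap8* with *Gimap1* and *Gimap1* with *Gimap9* in both naïve groups, and *Gimap7* with *Gimap5* in YFP+ naïve cells.

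In TEM cells *Gimap4* came first, with 14102 ± 1035 normalized counts per kb in the YFP- and 18996 ± 2421 in the YFP+ fraction. *Gimap3* followed with 12777 ± 950 and 15761 ± 70.9, and its libraries overlapped those of *Gimap4* in YFP- cells but not in YFP+ cells. *Gimap5* stayed last, with 921 ± 81 and 1079 ± 83.7. The 3 most abundant genes per length were thus the same in all 4 groups, and *Gimap7* was the one whose level moved most as a ratio, from 846 ± 255 per kb in YFP+ naïve to 2412 ± 516 in YFP+ TEM cells. The values of every library are shown in the plot of the 8 genes by group.

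**Figure D1:**
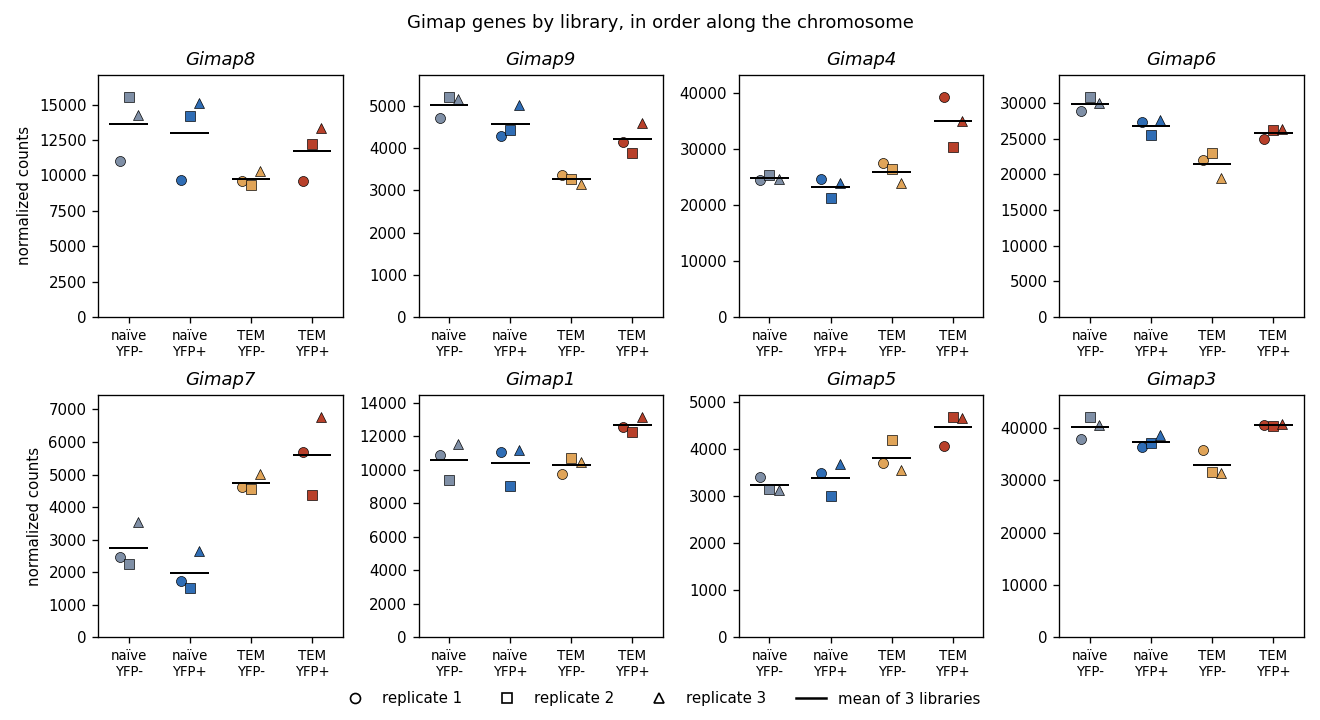
Normalized counts (axis from 0) of each Gimap gene in the 12 libraries, with a point per library (shape gives the replicate number) and a line at the mean of each group of 3. *Gimap7* lies higher in all TEM than in all naïve libraries, while *Gimap9* and *Gimap6* are lowest in YFP- TEM cells.

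The first comparison asked how the genes differed between TEM and naïve cells that carried no YFP. *Gimap7* was higher in TEM cells, 4 genes were lower (*Gimap9*, *Gimap6*, *Gimap8* and *Gimap3*), and *Gimap1*, *Gimap4* and *Gimap5* did not pass the test. A gene was called at an adjusted p of 0.05 or less (limma on the log2 of the normalized count plus 1, Benjamini-Hochberg over 15587 genes). Many genes changed here. Of all genes tested, 29.9% were called higher and 19.9% lower, so that 1 of 8 higher and 4 of 8 lower are read against these shares. The groups of 3 libraries did not overlap for 6 of the 8 members, against 59.0% of all genes. The median log2 fold change was -0.16 over the members and 0.05 over all genes tested.

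*Gimap7*, whose GTPase activity depends on pairing of the protein with itself, had 2476, 2255 and 3542 normalized counts in YFP- naïve and 4612, 4563 and 5028 in YFP- TEM cells. All 3 TEM libraries lay above all 3 naïve ones. The fold was 1.75 (log2 0.81, SE 0.22, adjusted p = 0.0077).

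*Gimap9* had 4717, 5218 and 5164 normalized counts in naïve and 3369, 3265 and 3152 in TEM cells, with no overlap. It fell by 35.1%, the largest decrease of a member in this comparison (log2 -0.62, SE 0.09, adjusted p = 6.5e-05). *Gimap6*, whose product binds an ATG8-family protein of the autophagy machinery, had 28900, 30851 and 29993 in naïve and 21937, 23036 and 19470 in TEM cells. These groups stood apart as well (log2 -0.48, SE 0.09, adjusted p = 0.00062). *Gimap8*, which carries several GTPase domains in 1 protein, varied more, with 11049, 15549 and 14273 against 9637, 9310 and 10288. Its naïve replicate 1 lay close to the TEM libraries (log2 -0.47, SE 0.18, adjusted p = 0.0419).

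*Gimap3*, the relative of *Gimap5*, had 38023, 42094 and 40702 normalized counts in naïve and 35753, 31569 and 31460 in TEM cells. The groups did not overlap (log2 -0.29, SE 0.09, adjusted p = 0.0195). *Gimap5*, required for the survival of peripheral T cells, had 3415, 3167 and 3128 against 3710, 4199 and 3555. The TEM libraries were all higher, but the difference missed the threshold (log2 0.24, SE 0.10, adjusted p = 0.0595). DESeq2 called *Gimap5* higher here (adjusted p = 0.049). *Gimap1*, needed for mature B and T cells, overlapped between the groups (10608 ± 1122 and 10315 ± 510, log2 -0.04, SE 0.10, adjusted p = 0.795). So did *Gimap4*, tied to lymphocyte death (24801 ± 457 and 25905 ± 1902, log2 0.06, SE 0.11, adjusted p = 0.674).

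The calls of *Gimap8* and *Gimap3* were the least secure. Each was lost without YFP- naïve replicate 2 or 3 or YFP- TEM replicate 2 or 3, which left 3 of 8 called, and that of *Gimap8* also without YFP- TEM replicate 1, with adjusted p up to 0.145 and 0.0789. The direction of *Gimap3* and *Gimap1* flipped under quantile normalization, to log2 0.05 and 0.09. That scaling gave 2 members higher (*Gimap7* and *Gimap4*) and 1 lower (*Gimap9*), and moved the median of all genes from 0.05 to -0.2.

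The same comparison within YFP+ cells gave calls in 1 direction. *Gimap7*, *Gimap4*, *Gimap5* and *Gimap1* were higher in YFP+ TEM than in YFP+ naïve cells, and *Gimap8*, *Gimap9*, *Gimap6* and *Gimap3* were not called. Of all genes tested, 24.7% were called higher and 16.7% lower, against 4 and 0 of the 8 members. At an unadjusted p of 0.05 or less the same count of 4 was reached, and edgeR and DESeq2 also called 4 higher and 0 lower. The groups did not overlap for 5 of the 8, and for 48.7% of all genes. The median log2 fold change was 0.2 over the members and 0.03 over all genes.

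*Gimap7* had 1728, 1530 and 2642 normalized counts in YFP+ naïve and 5700, 4366 and 6760 in YFP+ TEM cells. This was the largest difference of any member in any comparison, with a clear gap between the groups. The fold was 2.89 (log2 1.53, SE 0.22, adjusted p = 0.00011).

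*Gimap4* had 24546, 21197 and 23880 normalized counts in naïve and 39277, 30386 and 35025 in TEM cells, a fold of 1.5 (log2 0.58, SE 0.11, adjusted p = 0.00093). The lowest TEM library lay above the highest naïve one. *Gimap5* had 3506, 3009 and 3678 against 4076, 4683 and 4673, again without overlap (log2 0.4, SE 0.10, adjusted p = 0.0054). *Gimap1* had 11092, 9015 and 11171 against 12578, 12259 and 13150 (log2 0.29, SE 0.10, adjusted p = 0.0405).

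The call of *Gimap1* rested on single libraries. It was lost without any 1 of the 6 TEM libraries or YFP+ naïve replicate 2, with adjusted p up to 0.16, and the count was then 3. The other 3 calls were kept in all 12 fits that each left out 1 library.

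The 4 members not called in YFP+ cells were those that were lower in TEM cells without YFP. *Gimap9* had 4299, 4427 and 5025 normalized counts in YFP+ naïve and 4151, 3882 and 4603 in YFP+ TEM cells, with overlap (log2 -0.12, SE 0.09, adjusted p = 0.286). *Gimap6* had 27287, 25492 and 27569 against 24983, 26150 and 26319 (log2 -0.05, adjusted p = 0.669), and *Gimap8* had 13003 ± 2893 against 11726 ± 1898 (log2 -0.14, adjusted p = 0.572). *Gimap3* had 36372, 37116 and 38701 against 40698, 40407 and 40744. Its TEM libraries all lay above the naïve ones, and the gene was not called (log2 0.12, SE 0.09, adjusted p = 0.333). The difference between the subset comparisons of YFP+ and YFP- cells is the interaction given further on, and each comparison uses its own 6 libraries.

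**Figure D2:**
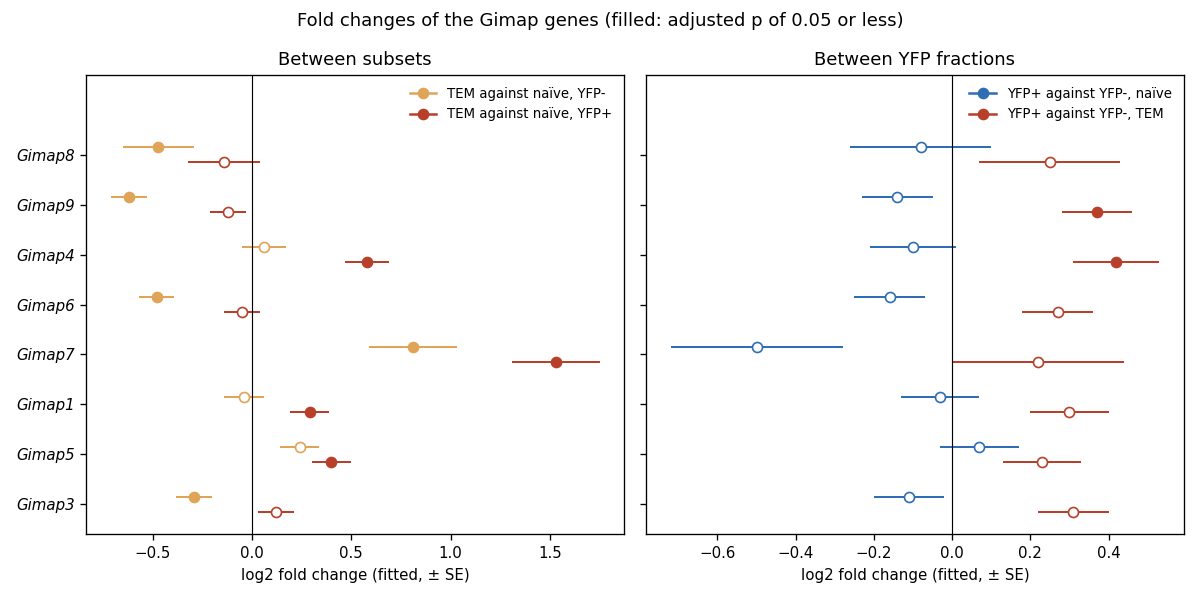
Fitted log2 fold change ± SE of each Gimap gene between subsets (left) and between YFP fractions (right), in the order of the cluster, with filled points for an adjusted p of 0.05 or less. In TEM cells all 8 values lie on the YFP+ side and 2 are filled, whereas in naïve cells 7 of 8 lie on the other side and none is filled.

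Within TEM cells, the comparison of YFP+ with YFP- cells asked what marks cells with present or past GM-CSF expression. All 8 members had a positive fold change, 2 passed the test (*Gimap9* and *Gimap4*) and none was lower. Among all genes tested, 2.30% were called higher and 4.67% lower. The groups did not overlap for 5 of the 8 (*Gimap9*, *Gimap4*, *Gimap6*, *Gimap1* and *Gimap3*), against 25.0% of all genes. The median log2 fold change was 0.28 over the members and -0.01 over all genes.

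*Gimap9* had 3369, 3265 and 3152 normalized counts in YFP- and 4151, 3882 and 4603 in YFP+ TEM cells. The fractions were clearly apart, with YFP+ cells 28.9% higher (log2 0.37, SE 0.09, adjusted p = 0.0209). *Gimap4* had 27549, 26344 and 23822 against 39277, 30386 and 35025, which was 34.2% higher (log2 0.42, SE 0.11, adjusted p = 0.0334). Its YFP+ replicate 2 was closest to the YFP- libraries.

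*Gimap3* had 35753, 31569 and 31460 normalized counts in YFP- and 40698, 40407 and 40744 in YFP+ TEM cells. The YFP+ libraries were nearly equal and all higher, yet the gene was not called (log2 0.31, SE 0.09, adjusted p = 0.0753). *Gimap6* had 21937, 23036 and 19470 against 24983, 26150 and 26319 (log2 0.27, SE 0.09, adjusted p = 0.104), and *Gimap1* had 9741, 10713 and 10490 against 12578, 12259 and 13150 (log2 0.3, SE 0.10, adjusted p = 0.125). Both pairs of groups were apart without passing the threshold.

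The remaining 3 genes overlapped between the fractions. *Gimap5* had 3710, 4199 and 3555 against 4076, 4683 and 4673 (log2 0.23, SE 0.10, adjusted p = 0.236), although each YFP+ library was above the YFP- library of the same number. *Gimap8* (9745 ± 498 and 11726 ± 1898, log2 0.25, SE 0.18, adjusted p = 0.57) and *Gimap7* (4735 ± 255 and 5609 ± 1200, log2 0.22, SE 0.22, adjusted p = 0.736) were above it in 2 of 3 pairs.

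With the replicate number as a block, which pairs these libraries, 5 of the 8 members were called higher in YFP+ TEM cells, while 12% of all genes were called in either direction. Blocked adjusted p was 0.0074 for *Gimap9*, 0.0083 for *Gimap4*, 0.0227 for *Gimap3*, 0.0337 for *Gimap1* and 0.038 for *Gimap6* (limma). Without the block the count fell to 0 without YFP- TEM replicate 2 or 3 or YFP+ TEM replicate 1 or 3. It fell to 1 without YFP- TEM replicate 1, YFP- naïve replicate 3 or YFP+ naïve replicate 3. DESeq2 called 4, edgeR called 3, and the fit without a variance trend called 0, with adjusted p = 0.054 for *Gimap9* and 0.0527 for *Gimap4*.

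Markers of other cell types moved with YFP in TEM cells. Of 7 plasmacytoid dendritic cell markers 6 were lower in YFP+ cells, as were 3 of 4 conventional dendritic cell markers, 2 of 7 myeloid markers and 2 of 2 CD8 T cell markers. Shares of all genes tested were 2.30% higher and 4.67% lower. *Ccr9* of the plasmacytoid list (log2 1.28) and *Cd14*, *S100a8* and *S100a9* of the myeloid list (2.2, 4.11 and 4.53) were higher in YFP+ cells but not called. The summed conventional dendritic cell markers were 6092 to 12035 normalized counts in YFP- and 400 to 808 in YFP+ TEM cells, and the myeloid ones 6057 to 11623 and 1723 to 3544. NK cell markers (2 of 3, *Ncr1* and *Klrb1c*) and B cell markers (2 of 7, *Cd79a* and *Ebf1*) were called higher in YFP+ cells. *Eomes* of the NK cell list (log2 -0.43) and *Cd79b* and *Blk* of the B cell list (-0.58 and -0.19) were lower but not called. The rest of the B cell list was higher without a call. Of the NK cell list *Ncr1* was at 3 normalized counts or fewer in YFP- TEM cells, where *Eomes* was at 527 ± 94.6 and *Klrb1c* at 154 ± 5.69. Of the myeloid list *S100a8* was at 3 or fewer there, while *Adgre1* was at 3023 ± 1283, *Itgam* at 2008 ± 740, *Csf1r* at 1920 ± 510 and *Lyz2* at 1373 ± 513.

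The 7 CD4 T cell genes summed to 203311 to 238376 normalized counts in YFP- and 225652 to 248372 in YFP+ TEM cells. None of them was called (0 at an unadjusted p of 0.05 or less in limma, 0 in edgeR and 0 in DESeq2), and their median log2 fold change was 0.15. When each library was scaled to the mean log2 level of these 7 genes, all 8 Gimap differences in TEM cells stayed positive but shrank to between 0.06 and 0.26, and 0 members were called. *Gimap9* was then at 0.21 (adjusted p = 0.602) and *Gimap4* at 0.26 (adjusted p = 0.347), with the median of all genes at -0.17. The part of other cell types in the family's difference was not tested beyond this scaling.

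In naïve cells, where YFP separates cells of the same surface type, no member was called between YFP+ and YFP- cells. The tests by limma, edgeR and DESeq2 each gave 0 of 8, and 1 member (*Gimap7*) had an unadjusted p of 0.05 or less. Of all genes tested, 0.00642% were called higher and 0% lower. The groups did not overlap for 1 of 8 members (*Gimap6*), against 5.38% of all genes. *Gimap7* had 2476, 2255 and 3542 normalized counts in YFP- and 1728, 1530 and 2642 in YFP+ naïve cells.

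The YFP+ library of *Gimap7* was below the YFP- library of the same number in all 3 pairs, but the groups overlapped (log2 -0.5, SE 0.22, adjusted p = 1.0). DESeq2 with the replicate block was the only setting of those tried that called it lower, at adjusted p = 0.0197. The other fold changes lay between -0.16 for *Gimap6* and 0.07 for *Gimap5*, and the median was -0.1 over the members and 0.0069 over all genes.

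The interaction asked whether the YFP difference in TEM cells departed from that in naïve cells. It was positive for all 8 genes, and 1 of them, *Gimap9*, was called. Of all genes tested, 0.828% had a higher and 2.73% a lower call. *Gimap9* had a log2 interaction of 0.5 (SE 0.12, adjusted p = 0.0423), made up of 0.37 in TEM and -0.14 in naïve cells.

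The other interactions were 0.72 for *Gimap7*, 0.52 for *Gimap4*, 0.43 for *Gimap6*, 0.41 for *Gimap3*, 0.33 for *Gimap8*, 0.32 for *Gimap1* and 0.16 for *Gimap5*, with adjusted p from 0.0969 to 0.849. With the replicate block 5 were called (*Gimap9*, *Gimap7*, *Gimap4*, *Gimap6* and *Gimap3*), with adjusted p from 0.0176 to 0.049, while 5.71% of all genes were called in either direction. When single libraries were left out, without the block, 9 of 12 fits no longer called *Gimap9*. It kept the call without YFP- naïve replicate 1, YFP+ naïve replicate 3 or YFP+ TEM replicate 2, and adjusted p over the 12 fits ranged from 0.0292 to 0.124. Scaled to the CD4 T cell genes, it stood at 0.39 (adjusted p = 0.745). The subset comparisons and the YFP comparisons share libraries, so their values for a gene are not independent.

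Seen as a sum over the 8 genes, the family was highest in YFP+ TEM cells. This does not hold for every member, since the means of *Gimap8*, *Gimap9* and *Gimap6* were highest in YFP- naïve cells. The sum was 123923, 133827 and 132992 normalized counts in YFP- naïve, 118530, 116001 and 127757 in YFP+ naïve, 116307, 112999 and 107266 in YFP- TEM and 141094, 134352 and 144604 in YFP+ TEM cells. Each YFP+ TEM library thus lay above the other 9 libraries, by a small margin over YFP- naïve replicate 2. As a share of all normalized counts the family held 0.315% ± 0.0122 in YFP+ TEM and 0.259% ± 0.0117 in YFP- TEM cells, and 0.251% ± 0.0245 and 0.273% ± 0.0256 in YFP+ and YFP- naïve cells.

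The make-up of the family is given per kilobase as a description. By this measure, *Gimap4* made up 27.1% ± 0.799 of the family in YFP- naïve and 34.2% ± 3.05 in YFP+ TEM cells. *Gimap6* made up 17.2% ± 0.253 and 13.3% ± 0.882, and *Gimap7* 2.38% ± 0.564 and 4.33% ± 0.752 of it in the same groups. In YFP- TEM cells these shares were 32.1% ± 0.948, 14% ± 0.85 and 4.65% ± 0.453. The shares were not tested between groups.

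**Figure D3:**
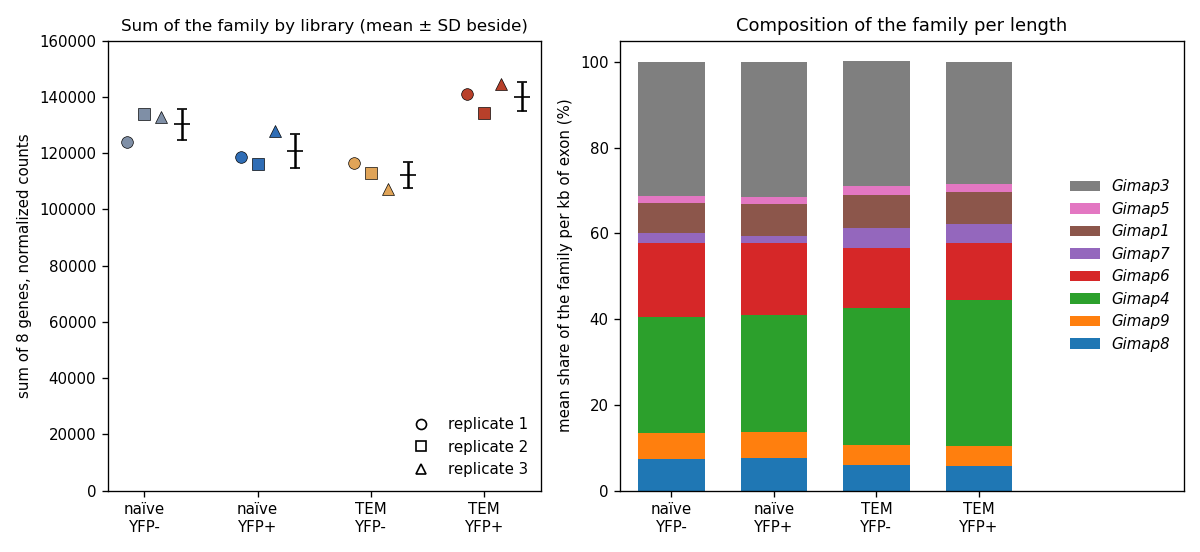
Left, the sum of the 8 Gimap genes in normalized counts (axis from 0) in each library, with mean ± SD beside each group. Right, the mean share of each gene in the family per kb of exon, in percent. The YFP+ TEM libraries, from 134352 to 144604, lie above all others, and *Gimap7* takes a larger share in TEM than in naïve cells.

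Over the 12 libraries, with the differences between groups included, the genes fell into a pair of patterns. *Gimap9* and *Gimap6* varied together (Pearson r = 0.93 over 12 libraries), as did *Gimap9* and *Gimap3* (0.8), *Gimap6* and *Gimap3* (0.78) and *Gimap8* and *Gimap9* (0.77). A second set held *Gimap4* and *Gimap5* (0.75), *Gimap4* and *Gimap7* (0.74), *Gimap4* and *Gimap1* (0.74) and *Gimap7* and *Gimap5* (0.73). Across the sets *Gimap6* and *Gimap7* had the lowest value, -0.48. These coefficients describe libraries that share group means, depth and animals. With group means removed the sets were less distinct. Within them *Gimap9* and *Gimap6* were then at 0.41 and *Gimap4* and *Gimap5* at 0.05, but *Gimap9* and *Gimap3* at 0.61. *Gimap7* and *Gimap1*, also within a set, were at 0.71. Across the sets *Gimap9* and *Gimap7* went from -0.46 to 0.71 and *Gimap6* and *Gimap5* from -0.29 to 0.68. *Gimap8* and *Gimap4*, also across them, were at -0.43. The first set held the 4 members that were lower in YFP- TEM cells, and it does not match the order of the genes in the cluster.

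Part of the spread within groups followed the replicate number. *Gimap7* was above its group mean in replicate 3 of all 4 groups, by 0.09 to 0.47 on the log2 scale, and below it in replicate 2 of all 4. *Gimap8* was below its mean in replicate 1 and above it in replicate 3 of all 4 groups, and *Gimap1* was above it in replicate 3. Replicates 1 and 2 had 11867 or more normalized counts of *Xist* and replicate 3 at most 24.7, while *Ddx3y* was at 3869 or more in replicate 3 only. Replicate 3 thus came from male and the others from female animals. Sex and animal cannot be told apart here, and sex was balanced between the groups.

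The genes around the cluster were set beside it. Of 19 other genes in the table within 500 kb, 17 were tested. In YFP- cells 8 of them were higher and 3 lower in TEM than in naïve cells, and in YFP+ cells 9 were higher and 1 lower. Of all genes tested, 29.9% were higher and 19.9% lower in YFP- cells, and 24.7% and 16.7% in YFP+ cells. *Tmem176b* and *Tmem176a*, which encode membrane proteins expressed in some effector T cells and in dendritic cells, begin 63.0 and 70.6 kb past the cluster. Their log2 fold changes in YFP- cells were 4.48 and 4.68. On the other side *Repin1*, a zinc finger gene 48.1 kb away, was at 2.35, and *Krba1* was at -0.65. *Sspo*, 145.9 kb away on that side, was at 4.69.

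Between YFP fractions of TEM cells 1 of the 17 neighbours was called, where 2.30% of all genes tested were called higher and 4.67% lower. *Gpnmb*, a glycoprotein gene 265.7 kb away, had 491 normalized counts on average in YFP+ and 83.6 in YFP- TEM cells (log2 2.51, SE 0.28, adjusted p = 0.0003). The gene nearest to the cluster, *AI854703*, was at log2 0.74 in that comparison and was not called (adjusted p = 0.112). None of the 17 was called in naïve cells, beside 0.00642% of all genes higher and 0% lower. In the interaction 1 (*Gpnmb*) was called, beside 0.828% of all genes higher and 2.73% lower.

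**Figure D4:**
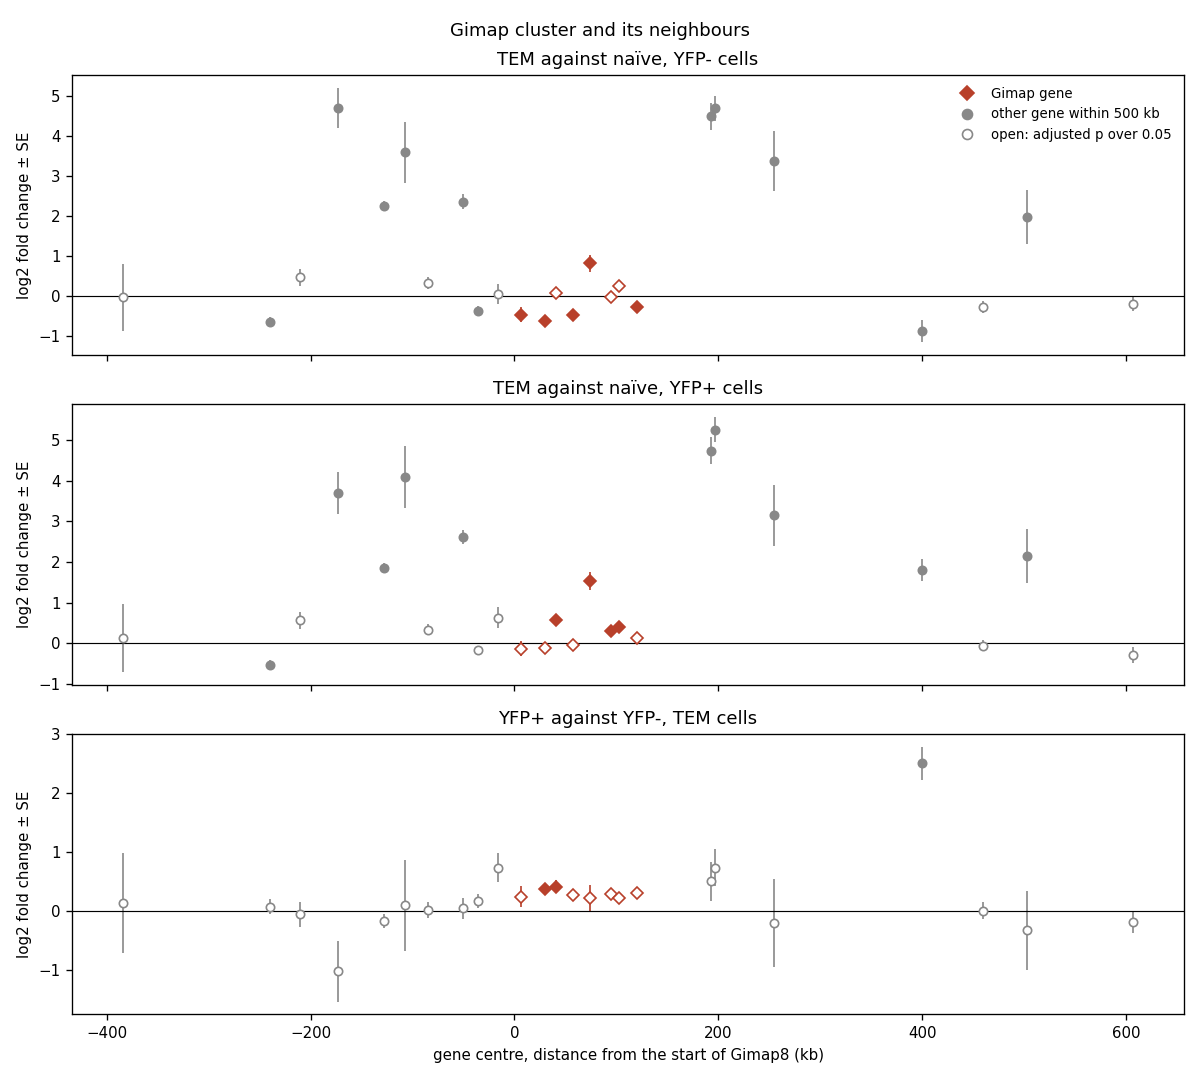
Fitted log2 fold change ± SE against the distance of each gene's centre from the start of *Gimap8* (kb), for Gimap genes (diamonds) and the 17 other tested genes within 500 kb (circles), with open symbols for an adjusted p over 0.05. The Gimap genes stay between -0.62 and 1.53 in all 3 panels, while *Sspo*, *Tmem176b* and *Tmem176a* exceed 4 between subsets in YFP- cells.

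Further gene lists cover processes and proteins related to the GIMAP family. Of 13 BCL2 family genes, which control cell death at mitochondria and with some of which *Gimap3* and *Gimap5* proteins interact, 8 were higher and 4 lower in TEM than in naïve cells without YFP, and 8 and 3 with YFP. Between YFP fractions of TEM cells 3 were higher and 2 lower. The shares of all genes tested were 29.9% higher and 19.9% lower without YFP, 24.7% and 16.7% with YFP, and 2.30% and 4.67% between the YFP fractions of TEM cells. *Bcl2*, which protects cells from death, was higher in YFP+ TEM cells (log2 1.16, adjusted p = 9.6e-05), as were the death-promoting genes *Bik* (1.53) and *Bcl2l11* (0.76). *Pmaip1* and *Bid*, which also promote death, were lower (-1.51 and -0.72). The median over the list was -0.07.

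Of 13 genes of naïve T cell homing and quiescence, 13 were lower in TEM cells without YFP and 12 with YFP, beside 19.9% and 16.7% of all genes. In YFP+ against YFP- TEM cells 2 were higher, beside 2.30% of all genes, with a list median of 0.18. *Satb1*, a chromatin organizer, was at log2 1.82 (adjusted p = 0.0018) and *Il7r*, the receptor of the survival cytokine IL-7, at 0.84 (adjusted p = 0.0017).

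Relatives by structure were listed as well. Of 8 septins tested, 4 were higher and 2 lower in TEM cells without YFP and 4 and 0 with YFP, beside 29.9% and 19.9%, and 24.7% and 16.7%, of all genes. *Septin8* was the only one called between the YFP fractions of TEM cells (log2 1.09, adjusted p = 0.0389). There 2.30% of all genes were called higher and 4.67% lower. Of 14 immunity-related GTPases and guanylate-binding proteins, which act against intracellular pathogens, 2 were higher and 4 lower without YFP and 2 and 3 with YFP, to be read against the same shares of all genes. Between YFP fractions of TEM cells limma called 0 of the 14 (2 at an unadjusted p of 0.05 or less), edgeR 0 and DESeq2 1, and the highest value was *Tgtp1* at log2 0.69 (adjusted p = 0.0527).

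The 5 genes outside the family that followed its mean centred log2 level most closely over the 12 libraries were *Rcbtb2* (Pearson r = 0.903), *Trav11n* (0.881), *D030056L22Rik* (0.879), *Camk2g* (0.875) and *Sc5d* (0.872). All 5 were highest in YFP+ TEM cells, as was the family mean by which they were chosen, so this follows from the choice. *Rcbtb2* had mean values of 2209 and 1830 normalized counts in YFP- and YFP+ naïve cells, 1930 in YFP- TEM and 5709 in YFP+ TEM cells. The family itself stood at 0.01 ± 0.07, -0.12 ± 0.13, -0.09 ± 0.03 and 0.2 ± 0.09 in the same order on the centred log2 scale. The likeness is one of pattern and says nothing of the size of a change.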

How the data were processed

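RNA was measured in 12 libraries of sorted splenic CD4+ T cells, with 3 per group. According to the study's methods and the labels, stranded total RNA libraries were sequenced, mapped to mm10 with DRAGEN, counted with Rsubread and normalized with DESeq2. The deposited signal is normalized counts, which the authors made by dividing reads by a size factor per library from DESeq2. Whole reads were recovered from 100.0% of values (tolerance 1e-06), and 0 columns were left unused. The annotation, strand setting and tool versions are not given in the sources used here. Size-factor scaling assumes that most genes do not change, so a global shift in RNA would be removed.

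Symbols and positions came from RefSeq on GRCm38.p6, which named 16749 of 17523 genes. Exon lengths came from GENCODE M21. The log2 of the value plus 1 was fitted in limma 3.58.1 (R 4.3.3) as 4 group means over 12 libraries with a variance trend (8 residual degrees of freedom), for 15587 genes, each reaching 5 normalized counts in 3 or more libraries. A call needed an adjusted p of 0.05 or less. The study's own rule adds a fold change threshold, which was run as an alternative. An exact permutation of 3 against 3 libraries cannot give a p under 0.1. Replicates differed by more than counting noise (chi-square over degrees of freedom, 32.3 to 68.5). The methods name 3 mice without tying libraries to them, so p-values measure the spread between these libraries.

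The replicate numbers pair the libraries in 3 of 4 comparisons. Deviations from group means of same-numbered libraries correlated with r = 0.18, 0.338 and 0.356 between YFP fractions of TEM cells, 0.306, 0.491 and 0.36 between those of naïve cells, and 0.168, 0.137 and 0.232 between the subsets without YFP.

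Named genes are the 8 members, called neighbours within 500 kb (up to 6), the 5 genes most like the family's mean (mean of at least 50 normalized counts), and up to 4 members per list with the largest fold change. Not every result chosen this way is reported here. *AI854703*, the nearest neighbour, was named after its value was seen. The members, lists and tests were chosen with earlier results of these data known. Alternatives were other prior counts (0.1 and 5), filters, normalizations, the replicate block, no variance trend, edgeR 4.0.16, DESeq2 1.42.0, fold change thresholds and leaving out each library. Block fits in edgeR and DESeq2 and scaling to CD4 T cell genes were chosen after seeing the data. The fit was tested on simulated data.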

Additional observations from a re-analysis of the deposited data

Results flagged for a closer look

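*Gimap9* differed between the subsets in its YFP effect, by a log2 interaction of 0.5 (SE 0.12, adjusted p = 0.0423, limma). It was 0.37 higher in YFP+ than in YFP- TEM cells and 0.14 lower (log2 -0.14) in YFP+ than in YFP- naïve cells. With the replicate block the adjusted p was 0.0176, and scaled to the CD4 T cell genes it was 0.745. Dendritic cell markers moved in the same interaction, with 6 of 7 plasmacytoid markers and 3 of 4 conventional ones lower. The other plasmacytoid marker, *Ccr9*, was called higher (log2 2.59, adjusted p = 0.0288, limma). Shares of all genes tested were 0.828% higher and 2.73% lower. The part of these markers was not tested.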

How the results depend on the processing

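Main counts of members called were 5 and 4 between subsets (YFP- and YFP+ cells), 2 and 0 between YFP fractions (TEM and naïve cells) and 1 in the interaction. In that order, scaling to CD4 T cell genes gave 3, 2, 0, 0 and 0, a minimum log2 fold change of 1 gave 0, 1, 0, 0 and 0, and one of 2 gave 0 throughout. Without a variance trend the YFP comparison in TEM cells and the interaction gave 0, and with DESeq2 4 and 4. The replicate block gave 5 and 5 there in limma, edgeR and DESeq2, and DESeq2 with the block gave 1 in naïve cells. The block changed no other count, and in YFP+ subsets the numbers did not pair the libraries (r = 0.204, -0.0199 and 0.0561). Quantile normalization gave 3 between subsets in YFP- cells, where DESeq2 gave 6, and a prior count of 0.1 gave 0 in the interaction. Leaving out 1 library gave 3 to 6, 3 to 4, 0 to 2, 0 to 0 and 0 to 2.

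Of 1112 member results under alternatives, 987 kept direction and side of the threshold, 77 lost a call, 37 gained one and 11 changed sign. Between subsets in YFP- cells the sign changes were *Gimap1* at 0.09 (quantile), 0.03 (without naïve replicate 3) and 0.0047 (without TEM replicate 1), *Gimap3* at 0.05 (quantile) and *Gimap4* at -0.03 (CD4 scaling). In YFP+ cells they were *Gimap6* at 0.14 (quantile) and *Gimap3* at -0.09 (CD4 scaling). In naïve cells they were *Gimap8* at 0.02 and 0.12 (without YFP- replicate 2 or YFP+ replicate 1) and *Gimap1* at 0.04 and 0.08 (without YFP- replicate 3 or YFP+ replicate 2). Over the fits that left out 1 library, *Gimap1* ranged from -0.12 to 0.03 between subsets in YFP- cells and from -0.11 to 0.08 between YFP fractions of naïve cells, and *Gimap8* from -0.22 to 0.12 in the latter. The cause of these changes was not tested. The lowest member value was 1530 normalized counts, so the spread between libraries limits these results more than depth.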
